A study of Mus musculus with 20 samples.

Results

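The genes described here are the splicing factors and heterogeneous nuclear ribonucleoproteins (hnRNPs) of the mouse: every row of the gene count table whose symbol starts with Srsf, Hnrnp, Snrp, Sf3a or Sf3b, leaving out the 3 rows named as -ps pseudogenes. That gave 52 of the 37620 genes listed: 11 SR proteins (Srsf), 20 hnRNPs (Hnrnp), 12 core proteins of the small nuclear ribonucleoproteins (snRNPs; Snrp) and 9 subunits of the SF3 complex (Sf3a and Sf3b). All 52 passed the filter on low counts. Snrpert, counted with the snRNP core by its symbol, is annotated as a processed pseudogene. The RNA came from B220+ cells, a selection for a B cell form of CD45, of C57BL/6 background. The cells were from 8 VavPBcl2/Myc lymphomas (called Myc here), 8 VavPBcl2/vector lymphomas (vector) and 4 normal spleens (normal). Both lymphoma groups carry the VavPBcl2 transgene, in which the Vav promoter drives Bcl2 in blood cells, and were transduced either with Myc or with an empty vector; the normal spleens have neither, and the labels state no ages or sexes. No comparison therefore separates the Bcl2 transgene, the transduction and the tumour state from each other. Cells were enriched with magnetic beads against B220 straight from the tissue, with no culture.

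Splicing removes introns in a stepwise assembly on the transcript. SR proteins bind exonic enhancers and recruit the machinery, whereas many hnRNPs bind silencers and oppose exon use, so that the balance between both families sets many alternative exons. The snRNPs are the machine itself: the Sm proteins (Snrpb, Snrpd1, Snrpd2, Snrpd3, Snrpe, Snrpf and Snrpg) form a ring on each spliceosomal RNA, Snrpa and Snrpc belong to the U1 particle that reads the 5′ splice site, and Snrpa1 and Snrpb2 belong to U2. The SF3 complex is the part of U2 that grips the branch point. Myc, a transcription factor that raises the output of many growth genes, is known in lymphoma models to act on genes of this machinery; the comparisons below ask how the transcripts of the 4 classes differed between the groups. The counts are per gene and hold no information on which exons were used.

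The libraries held 28.7 to 56.3 M counts in genes (M, 1e+06). Expression is given as counts per 1e+06 counts (CPM) on scaled libraries, and a gene is called where edgeR's quasi-likelihood test gave a p under 0.05 after Benjamini-Hochberg adjustment over the 17824 genes tested. Myc itself had 313, 909 and 1646 CPM (lowest, median and highest) in Myc lymphomas, against 48.3, 101 and 226 CPM in vector lymphomas, and 229, 218, 179 and 343 CPM in normal spleens. The gene rose in the Myc samples, set against the vector samples (3.05 ± 0.35 on the log2 scale, with the standard error; adjusted p = 1.22e-06), with no overlap between both groups. The run numbers in the labels, cut separately within each instrument, divide the samples. By that cut vector 1 to 6 and normal 1 came from later runs. All 8 Myc lymphomas, vector 7 and 8, and normal 2 to 4 came from earlier runs. Mitochondrially encoded RNA summed to 3114 to 7845 CPM in the 7 samples of later runs and to 43104 to 229634 CPM in the others. Because every Myc lymphoma was in the earlier runs, each comparison with Myc was also made within the earlier runs, where 8 Myc stand against 2 vector lymphomas or 3 normal spleens. One library, Myc 5, stood apart from the other Myc lymphomas in many members, and its values are named where they matter. Myc 5 also had the lowest value of the Myc gene among the Myc lymphomas, 313 CPM, inside the range of the normal spleens. The 5 B cell markers used (Cd79a, Cd79b, Ms4a1, Pax5 and Ptprc) summed to 1309.8 to 4590.5 CPM in Myc, 3231 to 6078 CPM in vector and 4211 to 4765 CPM in normal samples. Of these 5 genes 4 fell in Myc against vector lymphomas, while 4 of 5 NK cell, 5 of 5 plasmacytoid dendritic cell, 4 of 6 neutrophil, 2 of 5 T cell, 1 of 5 macrophage and 0 of 5 erythroid markers rose and 1 macrophage marker fell. In Myc lymphomas against normal spleens 6 of 6 neutrophil and 5 of 5 erythroid markers rose. So did 3 of 5 NK cell and 2 of 5 plasmacytoid dendritic cell markers. There 3 of 5 B cell markers fell, as did 1 of 5 each for NK cells, T cells and macrophages. In vector lymphomas against normal spleens 4 of 5 erythroid markers rose. In that comparison 5 of 5 NK cell, 2 of 5 plasmacytoid dendritic cell and 1 of 5 T cell markers fell. Its B cell, neutrophil and macrophage markers had no call. Summed markers of NK cells were 120.3 to 550 CPM in Myc, 26.4 to 55.8 CPM in vector and 113 to 196 CPM in normal samples. For plasmacytoid dendritic cells the sums were 157 to 1394 CPM in Myc, 41.0 to 109 CPM in vector and 129 to 184 CPM in normal samples, and for neutrophils 1420.3 to 15758 CPM in Myc, 40.2 to 4904 CPM in vector and 62.6 to 764 CPM in normal samples. Erythroid markers summed to 2498 to 47655 CPM in Myc, 1815 to 8549 CPM in vector and 106 to 1339 CPM in normal samples. T cell markers summed to 407 to 811 CPM in Myc, 296 to 517 CPM in vector and 581 to 650.2 CPM in normal samples, and 0 of the 36 marker genes were at 0 in every sample. The part of such cells in the results below was not tested. In bulk samples such as these, fewer cells of a type and less RNA per cell cannot be told apart.

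In Myc against vector lymphomas the classes moved in different directions. Of 12 snRNP core genes 10 rose and 0 fell, with a median log2 fold change of 0.93. Of 20 hnRNP genes 10 fell and 1 rose, with a median of -0.42. SR proteins showed 2 that rose and 1 that fell of 11 (median 0.03), and the SF3 complex 3 that rose and 1 that fell of 9 (median 0.21). Over all members 16 rose and 12 fell of 52, beside 26.6% of all genes tested that rose and 21.9% that fell, with a median of 0.08 over all genes. The total share called was near that of all genes. Without Myc 5 the counts of the snRNP core were the same, 10 and 0, with a median of 0.71, the hnRNPs had 1 that rose and 10 that fell, the SR proteins 4 and 1, and the SF3 complex 3 and 2. In the earlier runs alone 0 of 52 rose and 1 fell, Hnrnph3, where 2.97% of all genes rose and 4.4% fell. The median of the snRNP core there was 0.68 with 12 of 12 genes on the positive side, and that of the hnRNPs was -0.08. With run order as a term in the fit of all samples, 4 members rose (Srsf12, Hnrnpab, Snrpa1 and Snrpd1) and 1 fell (Hnrnph3), beside 9.2% and 9.77% of all genes. The direction over all samples was kept by 43 of 52 members within the earlier runs.

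**Figure D1:**
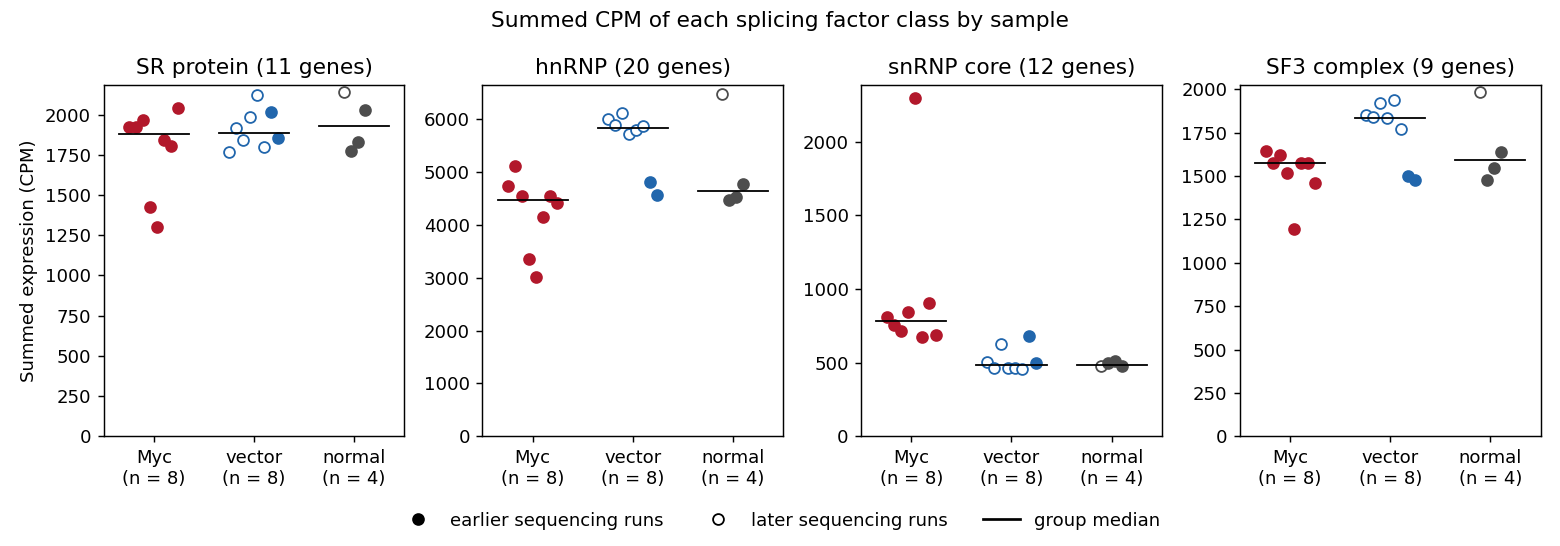
Summed expression (CPM, linear axis from 0) of the 4 classes in each sample, for Myc (n = 8), vector (n = 8) and normal (n = 4) samples; filled points are earlier runs, open points later runs, and lines are group medians. The snRNP core sum was 678 to 2295 CPM in Myc lymphomas and 454 to 685 CPM in vector lymphomas, and the hnRNP sum of the 2 earlier-run vector lymphomas lay beside that of the normal 2 to 4 samples, below the later-run samples.

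Summed per sample, the snRNP core reached 678 to 2295 CPM in Myc lymphomas (median 782), 454 to 685 CPM in vector lymphomas (median 483), and 476, 498, 512 and 475 CPM in normal spleens. The 7 Myc lymphomas other than Myc 5 lay between 678 and 908 CPM, and the highest vector lymphoma, vector 7 of the earlier runs, had 685 CPM. The Myc and vector ranges overlapped only through that sample. No normal spleen reached the lowest Myc lymphoma.

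Among the Sm ring genes the Snrpd2 difference was the largest. Snrpd2, which pairs with Snrpd1 in the ring, had 57.5, 63.8 and 364 CPM (lowest, median, highest) in Myc lymphomas, against 10.5, 18.3 and 55.9 CPM in vector lymphomas, and 11.6, 32.7, 30.7 and 31.3 CPM in normal spleens. All 8 Myc lymphomas lay above all 8 vector lymphomas, as for 5.12% of all genes. Snrpd2 rose 4.04-fold, a log2 fold change of 2.01 ± 0.43 (SE; adjusted p = 7.91e-04), and without Myc 5 the log2 value was 1.35. In later runs the vector lymphomas had 10.5 to 31.5 CPM of Snrpd2, whereas the 2 of the earlier runs had 35.5 and 55.9 CPM, and normal 1 stood in the same way below normal 2 to 4. Within the earlier runs the log2 fold change was 1.14 (adjusted p = 0.332).

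Snrpf and Snrpg, which join the ring as one unit with Snrpe, showed the same run difference in vector lymphomas. Snrpf had 20.4, 37.4 and 164 CPM in Myc lymphomas, against 8.31, 15.0 and 33.0 CPM in vector lymphomas, and 17.98, 20.4, 17.9 and 20.2 CPM in normal spleens. It rose by 1.61 ± 0.35 (log2 scale; adjusted p = 9.38e-04; 1.07 without Myc 5 and 0.97 within the earlier runs), and its lowest Myc lymphomas overlapped the vector range. Snrpg had 43.9, 50.7 and 222 CPM in Myc lymphomas, against 17.7, 21.0 and 69.0 CPM in vector lymphomas, and 21.6, 39.3, 37.7 and 42.0 CPM in normal spleens. The Snrpg value was 1.35 ± 0.36 (adjusted p = 0.00446) over all samples, 0.86 without Myc 5 and 0.42 (adjusted p = 0.694) within the earlier runs. In both genes the highest sample was Myc 5, and the highest vector lymphoma was vector 7.

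In mean log2 CPM, later minus earlier runs, Snrpd1 was at -0.52 in vector lymphomas and 0.18 in normal spleens. Snrpd3 was at -0.08 and 0.08. Snrpd1 had 35.3, 44.7 and 107 CPM in Myc lymphomas, against 16.9, 20.2 and 35.5 CPM in vector lymphomas, and 22.1, 23.1, 17.1 and 19.0 CPM in normal spleens. It rose 2.26-fold (log2 1.18 ± 0.22, adjusted p = 1.99e-04), and it was called also with run order as a term (log2 0.97, adjusted p = 0.0256). Within the earlier runs the Snrpd1 value was 0.81 (adjusted p = 0.237). Snrpd3 had 78.8, 118 and 316 CPM in Myc lymphomas, against 48.4, 71.7 and 100.4 CPM in vector lymphomas, and 92.2, 91.3, 95.8 and 75.2 CPM in normal spleens. Its log2 fold change was 0.93 ± 0.23 over all samples (adjusted p = 0.00232) and 0.89 within the earlier runs (adjusted p = 0.217), nearly the same size with fewer vector samples. Myc 5 was the highest Snrpd3 sample, and with each sample left out in turn the lowest value was 0.66. Snrpe, the third protein of that unit, rose by 0.79 and the pseudogene Snrpert by 1.19, both with Myc 5 as the highest sample. For Snrpe the value was 0.48 without Myc 5 (adjusted p = 0.0220), and for Snrpert it was 0.60 within the earlier runs (adjusted p = 0.433). Leaving Snrpert out, 9 of 11 snRNP core genes rose.

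Snrpb, which encodes the abundant Sm protein B, was not called. It had 163, 195 and 531 CPM in Myc lymphomas, against 147, 179 and 223 CPM in vector lymphomas, and 144, 125, 146 and 135 CPM in normal spleens. The ranges of Myc and vector lymphomas overlapped widely, with a log2 fold change of 0.48 ± 0.20 (adjusted p = 0.0557). It was called without any one of vector 3 or Myc 1, 2 or 8 (adjusted p down to 0.0305), and without Myc 5 its log2 value was 0.23. The Snrpb value was 0.67 within the earlier runs (adjusted p = 0.337) and 0.63 with run order as a term (adjusted p = 0.143). Vector lymphomas of later runs had 174 to 223 CPM and those of earlier runs 147 and 168 CPM. Snrpc, of the U1 particle, was the other uncalled gene of the class, at 0.39 ± 0.21 (adjusted p = 0.134) and 0.09 without Myc 5.

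Of the other proteins of U1 and U2, Snrpa, Snrpa1 and Snrpb2 rose. Snrpa, the A protein of U1, had 42.6, 50.9 and 114 CPM in Myc lymphomas, against 25.9, 30.8 and 43.0 CPM in vector lymphomas, and 14.6, 26.9, 27.0 and 29.4 CPM in normal spleens; its log2 fold change was 0.94 ± 0.20 (adjusted p = 6.57e-04). Only vector 7, at 43.0 CPM, reached into the Myc range. The Snrpa value was 0.65 within the earlier runs (adjusted p = 0.260) and 0.52 with run order as a term (adjusted p = 0.176). Snrpa1 of U2 rose by 0.81 ± 0.18 (adjusted p = 9.09e-04) and was called with run order as a term as well (0.73, adjusted p = 0.0473). Snrpb2, its partner on the U2 RNA, rose by 0.58 ± 0.19 (adjusted p = 0.0150), against 0.07 within the earlier runs.

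Myc with its partner Max binds the E-box CACGTG, so the windows around the start sites of the members were searched for these letters (RefSeq promoters, GRCm38.p6, 250 bases before to 50 after each start; the motif reads the same on both strands, and no other motif was searched). A window was matched for 45 of 52 members, and 6 of these 45 genes (13.3%) hold CACGTG, beside 11.2% of the genes tested that have a window and 8.09% of all genes with one. By class these were 5 of 18 hnRNPs, 1 of 9 snRNP core genes, 0 of 11 SR proteins and 0 of 7 SF3 genes. The 100 bases before the start are given for 5 members, each 5′ to 3′ on the gene's strand with the motif in capitals. Snrpa is the one snRNP core gene with the motif, which its upstream start has 2 times; Hnrnpd and Hnrnpa3 are hnRNPs that hold it; Snrpd2 and Hnrnph3, with the largest rise and the largest fall of their classes, have none in these 100 bases.
Snrpa (chr7:27196272-27196371, minus strand): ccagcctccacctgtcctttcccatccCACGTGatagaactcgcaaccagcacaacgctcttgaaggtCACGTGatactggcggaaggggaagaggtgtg
Hnrnpd (chr5:99978939-99979038, minus strand): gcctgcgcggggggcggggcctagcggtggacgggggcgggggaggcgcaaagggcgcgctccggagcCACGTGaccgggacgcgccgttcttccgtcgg
Hnrnpa3 (chr2:75659159-75659258, plus strand): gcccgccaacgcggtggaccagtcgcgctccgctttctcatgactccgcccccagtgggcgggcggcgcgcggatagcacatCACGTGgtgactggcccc
Snrpd2 (chr7:19149738-19149837, plus strand): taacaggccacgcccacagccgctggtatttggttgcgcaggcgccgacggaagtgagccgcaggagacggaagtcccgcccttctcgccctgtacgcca
Hnrnph3 (chr10:63023850-63023949, minus strand): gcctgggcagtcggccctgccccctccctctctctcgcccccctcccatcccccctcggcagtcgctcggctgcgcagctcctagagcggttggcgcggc
In Snrpa the motif starts 73 and 32 bases before the upstream start, and 69 bases before another, downstream start. It starts 32 bases before the start in Hnrnpd, 18 in Hnrnpa3 and 79 in Hnrnpf. Hnrnpm and Hnrnph2 hold it 14 and 16 bases after the start. Genes with the motif were found on both sides: Snrpa rose, Hnrnpa3, Hnrnpm and Hnrnph2 fell, and Hnrnpd (-0.25 ± 0.14) and Hnrnpf (0.00 ± 0.16) were not called in Myc against vector lymphomas. A match describes the letters of the window and is no measurement of binding.

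The hnRNPs are a large family of abundant RNA-binding proteins that coat nascent transcripts. Summed per sample they reached 3006 to 5120 CPM in Myc lymphomas (median 4471), 4557 to 6122 CPM in vector lymphomas (median 5832), and 6471, 4465, 4518 and 4779 CPM in normal spleens. The sums followed the runs in both other groups: vector lymphomas of later runs had 5714 to 6122 CPM and those of earlier runs 4557 and 4802 CPM, and normal 1, of a later run, stood above normal 2 to 4. The median difference of later minus earlier runs over the 20 hnRNP genes was 0.25 in log2 CPM in vector lymphomas, beside -0.05 over all genes. In normal spleens, where only normal 1 was of a later run, it was 0.54, beside 0 over all genes.

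The 3 hnRNP H genes, whose proteins bind runs of G, all fell. Hnrnph3 had 9.45, 20.2 and 27.1 CPM (lowest, median, highest) in Myc lymphomas, against 33.1, 41.7 and 52.8 CPM in vector lymphomas, and 62.2, 39.1, 41.2 and 44.9 CPM in normal spleens. All Myc lymphomas lay below all vector lymphomas and all normal spleens. It fell to 0.47 of the vector level (log2 -1.09 ± 0.18, adjusted p = 6.32e-05), with -1.10 within the earlier runs (adjusted p = 0.0285) and -0.96 with run order as a term (adjusted p = 0.00685). Hnrnph1, its larger relative, had 76.7, 254 and 336 CPM in Myc lymphomas, against 359, 387 and 472 CPM in vector lymphomas, and 591, 364, 372 and 466 CPM in normal spleens. The Hnrnph1 groups did not overlap, and it fell by 0.82 ± 0.22 (adjusted p = 0.00429), with -0.71 in the earlier runs (adjusted p = 0.297). Hnrnph2 fell by 0.67 ± 0.17 (adjusted p = 0.00260) with no overlap between Myc and vector lymphomas either. Hnrnpf, which binds the same G runs, had a difference near 0 over all samples and was not called. Within the earlier runs it was at -0.32 (adjusted p = 0.516), and with run order as a term at -0.30 (adjusted p = 0.325). In all, 4 hnRNPs lay lower in every Myc than in every vector lymphoma (Hnrnph1, Hnrnph2, Hnrnph3 and Hnrnpdl), as 6.38% of all genes did.

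Of the 10 hnRNPs that fell, 7 were outside the H group. Hnrnpul2, a relative of the nuclear scaffold protein Hnrnpu, had 93.8, 236 and 298 CPM in Myc lymphomas, against 273, 484 and 518 CPM in vector lymphomas, and 530, 319, 330 and 320 CPM in normal spleens. The fold was 0.50 over all samples (log2 -1.003 ± 0.21, adjusted p = 7.39e-04), and the log2 value within the earlier runs was -0.37 (adjusted p = 0.554). The vector lymphomas of later runs held 467 to 518 CPM and those of earlier runs 273 and 302 CPM, beside 298 CPM in the highest Myc lymphoma. Hnrnpa3 fell by 0.74 ± 0.21 (adjusted p = 0.00776) over all samples and was at -0.06 within the earlier runs. Hnrnpa2b1, which binds UAG-containing motifs, had 247, 464 and 628 CPM in Myc lymphomas, against 508, 675 and 725 CPM in vector lymphomas, and 873, 555, 596 and 594 CPM in normal spleens. It fell by 0.57 ± 0.17 (adjusted p = 0.0110), with -0.31 within the earlier runs. Hnrnpc, which binds U tracts, had 178, 208 and 243 CPM in Myc lymphomas, against 234, 290 and 335 CPM in vector lymphomas, and 294, 237, 228 and 206 CPM in normal spleens. It fell by 0.49 ± 0.12 (adjusted p = 0.00261), with -0.29 within the earlier runs. Hnrnpdl, Hnrnpul1 and Hnrnpm also fell, by 0.61, 0.43 and 0.41, and their values within the earlier runs were -0.53, -0.22 and 0.0074, so that of Hnrnpm turned sign. For Hnrnpm the call over all samples was lost without any one of vector 1, 2, 3, 5 or 6 or Myc 4, with an adjusted p of up to 0.0740.

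Several well-known members of the family were not called. Hnrnpa1, a classic antagonist of SR proteins, had 92.8, 178 and 215 CPM in Myc lymphomas, against 147, 226 and 315 CPM in vector lymphomas, and 248, 136, 123 and 152 CPM in normal spleens. Its log2 fold change was -0.45 ± 0.21 (adjusted p = 0.0780) over all samples and 0.10 within the earlier runs, so its sign depended on the samples used; without vector 8 it was called (adjusted p = 0.0412). Hnrnpk, which binds C-rich RNA, had 219, 303 and 330.5 CPM in Myc lymphomas, against 286.5, 366 and 439 CPM in vector lymphomas, and 434, 284, 306 and 302 CPM in normal spleens (log2 -0.31 ± 0.13, adjusted p = 0.0540, called without any one of vector 8 or Myc 1 or 7 at 0.0310 or above). Hnrnpu, which binds chromatin-associated RNA, had 173, 418 and 605 CPM in Myc lymphomas, against 424, 547 and 610 CPM in vector lymphomas, and 617, 418, 400 and 435 CPM in normal spleens (log2 -0.39 ± 0.19, adjusted p = 0.0960, and 0.0362 without Myc 2). In these 3 genes the groups overlapped, and normal 1 was above the other normal spleens.

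Hnrnpll was the only hnRNP that rose. It is known for repressing the variable exons of CD45 in activated lymphocytes and plasma cells. It had 15.9, 30.2 and 34.3 CPM in Myc lymphomas, against 11.3, 14.0 and 20.2 CPM in vector lymphomas, and 11.3, 15.5, 13.8 and 14.3 CPM in normal spleens. It rose 1.84-fold (log2 0.88 ± 0.17, adjusted p = 2.74e-04), with a log2 value of 0.62 in the earlier runs (adjusted p = 0.237). Hnrnpab, which binds both single-stranded DNA and RNA, was not called over all samples (0.34 ± 0.15, adjusted p = 0.0763, or 0.0368 without vector 3) and rose with run order as a term (0.73, adjusted p = 0.00770).

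**Figure D2:**
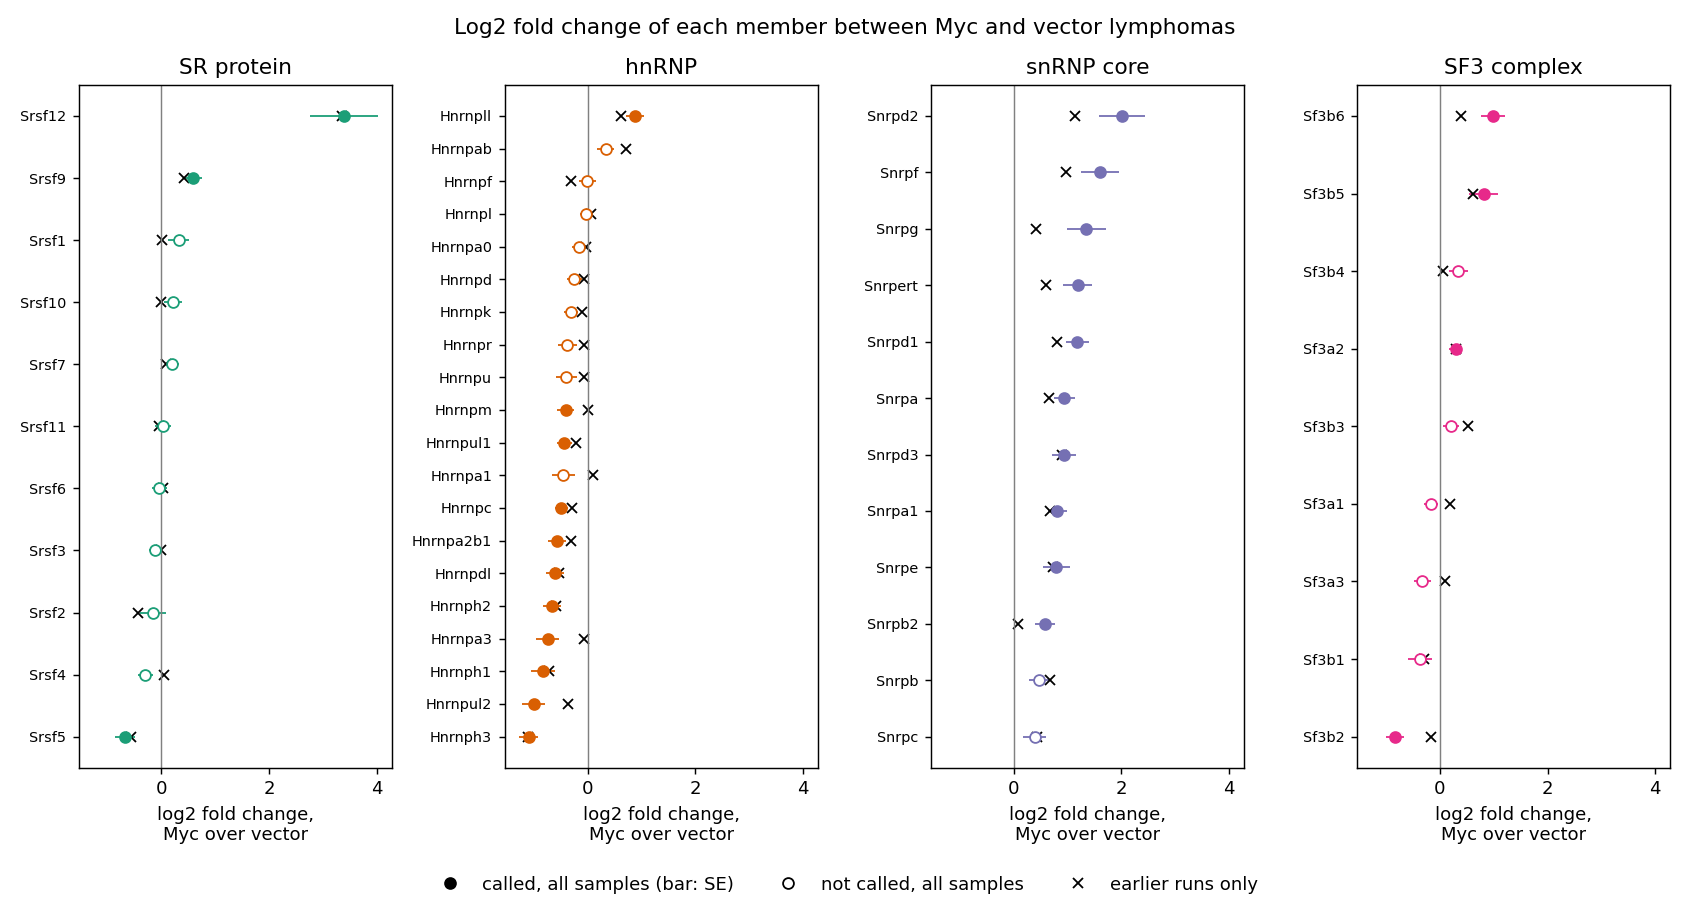
Log2 fold change of each of the 52 members in Myc over vector lymphomas (n = 8 each), by class; bars are standard errors, filled points are called by edgeR, open points are not, and crosses give the value within the earlier runs (8 Myc, 2 vector). All 12 snRNP core genes lie right of 0 in both settings, whereas many hnRNP crosses, such as that of Hnrnpa3 at -0.06, lie nearer to 0 than the points.

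The summed level of the SR proteins overlapped between all groups. It was 1300 to 2043 CPM in Myc lymphomas (median 1882), 1766 to 2122 CPM in vector lymphomas (median 1885), and 2142, 1771, 1833 and 2026 CPM in normal spleens. Srsf1, the founding member of the family, had 93.9, 262 and 357 CPM in Myc lymphomas, against 157, 199 and 282 CPM in vector lymphomas, and 283, 230, 244 and 246 CPM in normal spleens. Its log2 fold change was 0.32 ± 0.19 (adjusted p = 0.174). Without Myc 5, which had the lowest value, it rose by 0.45 (adjusted p = 0.00586), while within the earlier runs it was at 0.02. Srsf2, a splicing activator of nuclear speckles, had 15.9, 50.3 and 57.0 CPM in Myc lymphomas, against 30.3, 45.7 and 85.5 CPM in vector lymphomas, and 60.7, 48.3, 55.4 and 50.3 CPM in normal spleens (log2 -0.15 ± 0.23, adjusted p = 0.607). Srsf3 and Srsf7, which link splicing to export of the RNA, were at -0.12 ± 0.12 and 0.19 ± 0.13. Srsf3 varied little, with 246, 265 and 296 CPM in Myc lymphomas, against 247, 271 and 355 CPM in vector lymphomas, and 271, 265, 237 and 279 CPM in normal spleens.

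Of the 3 called SR proteins, Srsf5 fell and Srsf9 and Srsf12 rose. Srsf5 had 153, 338 and 418 CPM in Myc lymphomas, against 439, 479 and 647 CPM in vector lymphomas, and 394, 308, 339 and 422 CPM in normal spleens. Every Myc lymphoma lay below every vector lymphoma, and it fell by 0.67 ± 0.19 (adjusted p = 0.00601), with -0.56 within the earlier runs (adjusted p = 0.349). Srsf9 had 45.3, 57.7 and 122 CPM in Myc lymphomas, against 34.4, 42.5 and 53.0 CPM in vector lymphomas, and 44.7, 42.3, 45.9 and 40.1 CPM in normal spleens. It rose by 0.58 ± 0.17 (adjusted p = 0.00896), with Myc 5 as the highest sample and 0.39 without it. Srsf12, the scarcest SR protein here, had 0.75, 1.82 and 14.6 CPM in Myc lymphomas, against 0, 0.33 and 0.61 CPM in vector lymphomas, and 0.81, 1.38, 0.83 and 1.02 CPM in normal spleens. Its log2 fold change was 3.38 ± 0.63 (adjusted p = 2.35e-04) over all samples and 3.36 (adjusted p = 0.0954) within the earlier runs. The highest Myc lymphoma was Myc 3, without which the value was 2.51.

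In the SF3 complex Sf3b6, Sf3b5 and Sf3a2 rose and Sf3b2 fell. Sf3b6, the small protein that touches the branch-point adenosine, had 70.4, 75.3 and 181 CPM in Myc lymphomas, against 28.8, 41.0 and 81.4 CPM in vector lymphomas, and 50.6, 61.9, 53.8 and 49.3 CPM in normal spleens. It rose by 0.98 ± 0.22 (adjusted p = 0.00116), or 0.39 within the earlier runs (adjusted p = 0.521); among vector lymphomas only vector 7 reached the Myc range. Sf3b5 had 52.3, 62.1 and 215 CPM in Myc lymphomas, against 24.9, 47.8 and 71.4 CPM in vector lymphomas, and 24.6, 39.4, 41.4 and 37.7 CPM in normal spleens. It rose by 0.81 ± 0.28 (adjusted p = 0.0202), and without Myc 5 its value was 0.43 (adjusted p = 0.0559), which ends the call. Within the earlier runs Sf3b5 was at 0.62 (adjusted p = 0.455). Sf3a2 had 65.4, 78.1 and 104 CPM in Myc lymphomas, against 50.4, 63.3 and 76.8 CPM in vector lymphomas, and 46.0, 56.7, 61.7 and 61.5 CPM in normal spleens. It rose by 0.30 ± 0.12 (adjusted p = 0.0442), a call that was lost without any one of vector 1, 2, 4, 6 or 8 or Myc 1, 2, 3, 4, 6 or 7 (adjusted p up to 0.128). The Sf3a2 value within the earlier runs was 0.30 (adjusted p = 0.448).

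Sf3b2, a large subunit that contacts the RNA beside the branch point, had 227, 289 and 359.5 CPM in Myc lymphomas, against 319, 558 and 659 CPM in vector lymphomas, and 505, 303, 335 and 319 CPM in normal spleens. It fell by 0.83 ± 0.17 (adjusted p = 5.83e-04) over all samples and was at -0.16 (adjusted p = 0.733) within the earlier runs. The vector lymphomas of later runs had 496 to 659 CPM and those of earlier runs 319 and 345 CPM. Sf3b1, the subunit most often mutated in human blood cancers, had 96.2, 464 and 548.5 CPM in Myc lymphomas, against 466, 547 and 623 CPM in vector lymphomas, and 830, 593, 622 and 700 CPM in normal spleens. Sf3b1 was not called (log2 -0.37 ± 0.23, adjusted p = 0.192); 96.2 CPM was the value of Myc 5. Sf3a3 had 64.3, 78.6 and 107 CPM in Myc lymphomas, against 60.7, 102 and 142 CPM in vector lymphomas, and 98.4, 72.4, 73.1 and 63.5 CPM in normal spleens (log2 -0.33 ± 0.15, adjusted p = 0.0840). Without any one of vector 8 or Myc 1 or 5 it was called, with an adjusted p down to 0.0225.

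**Figure D3:**
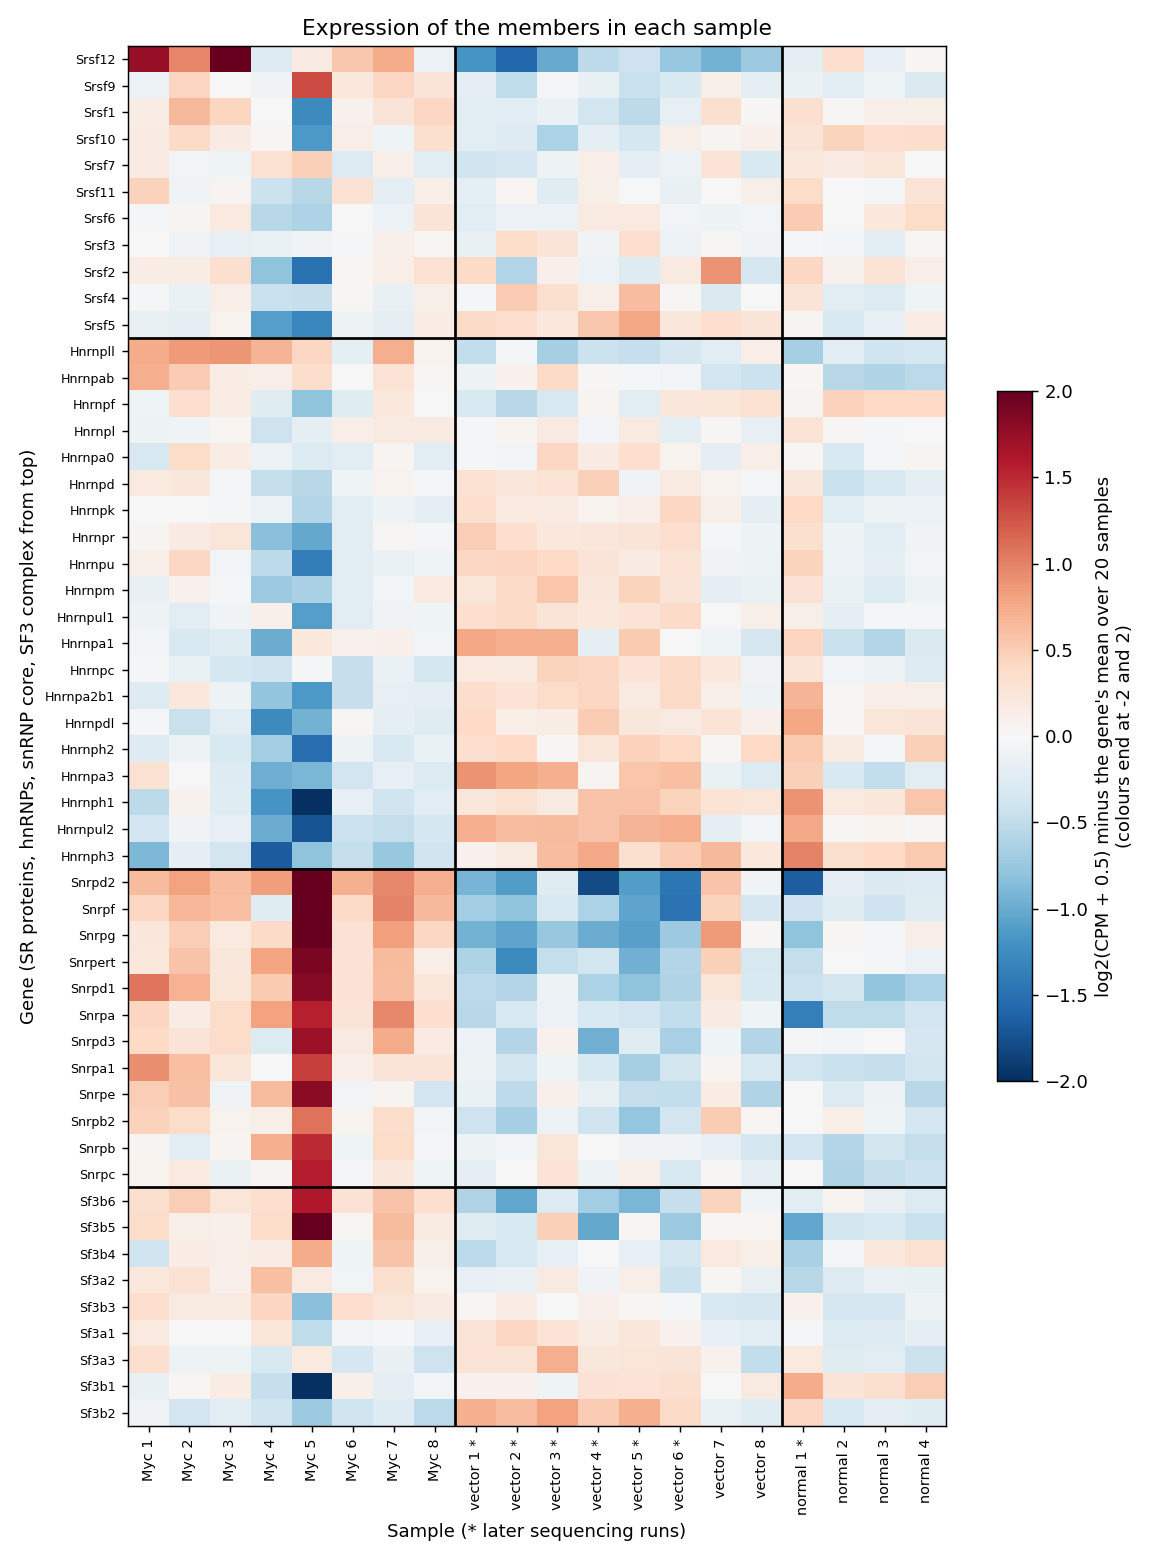
Each member's log2(CPM + 0.5) minus its own mean over the 20 samples, with classes from the top (SR proteins, hnRNPs, snRNP core, SF3 complex) and columns for Myc, vector and normal samples; asterisks mark later runs. Myc 5 is the darkest column among the snRNP core genes, where its sum was 2295 CPM. In 8 of 20 hnRNP rows vector 7 and 8 lie below all of vector 1 to 6, and in 1 row above them. The share of all genes with such a pattern was not counted.

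Myc lymphomas were also compared with normal B220+ spleen cells. This comparison shares its 8 Myc samples with the previous one, so its calls are not a second, independent test of them. Of 52 members 14 rose and 6 fell, beside 21.5% and 17.9% of all genes. The snRNP core had 8 that rose and 0 that fell of 12 (median 0.93), the hnRNPs 2 and 6 of 20 (median -0.18), the SR proteins 1 and 0 of 11 (median -0.08), and the SF3 complex 3 and 0 of 9 (median 0.21). Within the earlier runs 5 rose (Hnrnpab, Hnrnpll, Snrpa, Snrpa1 and Snrpd1) and 1 fell (Hnrnph3), beside 12.7% and 7.97% of all genes. With run order as a term 11 rose and 5 fell, beside 20.6% and 16.3%. Leaving out normal 1 left 10 that rose and 2 that fell, beside 2940 that rose and 2020 that fell of 18158 genes tested in that fit.

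Among the called members, the largest rise over normal cells was that of Snrpd2. Snrpd2 rose by 1.93 ± 0.56 (adjusted p = 0.0102; 1.29 without Myc 5) with all Myc lymphomas above all normal spleens, a pattern of 7 of the 12 genes of the class and of 13.1% of all genes. Snrpd1 rose by 1.35 ± 0.28 (adjusted p = 9.32e-04) and Snrpa by 1.34 ± 0.25 (adjusted p = 4.51e-04), and the values within the earlier runs were 1.41 (adjusted p = 0.0118) and 1.18 (adjusted p = 0.0125). Snrpb, uncalled against vector lymphomas, rose over normal cells by 0.86 ± 0.26 (adjusted p = 0.0120). Snrpd3 was not called (0.67 ± 0.29, adjusted p = 0.0650, or 0.0349 without Myc 4), and neither was Snrpg (1.04 ± 0.46, adjusted p = 0.0725). Snrpf, Snrpa1, Snrpc and Snrpert also rose, by 1.42, 0.98, 0.72 and 0.88. Without Myc 5 the value was 0.91 for Snrpf and 0.44 for Snrpc. Snrpc and Snrpert lost the call without some of the libraries (adjusted p up to 0.0976 and 0.110), Snrpc without any one of normal 2 to 4 and Snrpert without any one of normal 1 to 4 or Myc 4, 5 or 7.

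Hnrnph3 fell against normal cells by 1.24 ± 0.21 (adjusted p = 1.56e-04), and by 1.06 within the earlier runs (adjusted p = 0.00964). Hnrnph1 fell by 0.97 ± 0.26 (adjusted p = 0.00636) and remained called without any one library (highest adjusted p = 0.0480). Hnrnph2, Hnrnpdl, Hnrnpul2 and Hnrnpa2b1 fell by 0.68, 0.71, 0.76 and 0.58, and each lost its call without normal 1, with adjusted p-values of up to 0.0636, 0.0954, 0.166 and 0.221 over the samples left out in turn; Hnrnpa2b1 lost it also without normal 3, normal 4 or Myc 4, and was at -0.38 within the earlier runs. In 4 hnRNPs (Hnrnph1, Hnrnph2, Hnrnph3 and Hnrnpul2) every Myc lymphoma lay below every normal spleen, as for 14.3% of all genes. Hnrnpll rose by 0.99 ± 0.21 (adjusted p = 0.00123) with no overlap between Myc lymphomas and normal spleens, and by 0.94 within the earlier runs (adjusted p = 0.0222). Hnrnpab rose by 0.68 ± 0.19 (adjusted p = 0.00905), and by 0.89 within the earlier runs (adjusted p = 0.0153).

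In the SF3 complex Sf3b5, Sf3b6 and Sf3a2 rose over normal cells by 1.18 ± 0.36, 0.74 ± 0.28 and 0.50 ± 0.15 (adjusted p = 0.0128, 0.0372 and 0.0120). Of these, Sf3a2 lost the call without normal 1 (adjusted p = 0.0523) and Sf3b6 without any one of normal 1, 3 or 4 or Myc 7 (adjusted p up to 0.0791). Sf3b1 lay lower in all Myc lymphomas than in all normal spleens without being called (-0.69 ± 0.28, adjusted p = 0.0531); it was called without Myc 5 (-0.51, adjusted p = 0.00652) or Myc 6. Srsf9 was the one SR protein called (0.56 ± 0.22, adjusted p = 0.0452), and leaving out any one normal spleen, Myc 2 or Myc 7 ended that call, with an adjusted p of up to 0.0969.

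Between vector lymphomas and normal spleen cells edgeR's quasi-likelihood test called no member: 0 of 52 rose and 0 fell, beside 7.46% and 3.36% of all genes. At an unadjusted p under 0.05 the same test had 2 higher (Sf3a1 and Sf3b2) and 2 lower (Srsf10 and Srsf12). DESeq2 called 0 of 52, beside 7.62% of all genes that rose and 3.21% that fell. It had 7 higher and 2 lower at an unadjusted p under 0.05. The share of all genes at that unadjusted threshold was not counted. A fit of the vector and normal samples alone, which estimates the spread without the Myc lymphomas, called 3 members, 2 that rose and 1 that fell, beside 12.6% and 8.11% of all genes: Srsf5 (0.46 ± 0.15, adjusted p = 0.0415) and Snrpb (0.39 ± 0.12, adjusted p = 0.0301) rose and Srsf10 (-0.50 ± 0.14, adjusted p = 0.0206) fell. In the fit of all samples the log2 fold changes of the members ran from -1.59 (Srsf12) to 0.55 (Hnrnpa3), with class medians of -0.20 for SR proteins, 0.18 for hnRNPs, -0.05 for the snRNP core and 0.20 for the SF3 complex. Later-run samples were 6 of 8 in the vector group and 1 of 4 in the normal group. Within the earlier runs, 2 vector lymphomas against 3 normal spleens, 0 of 52 members were called, beside 0.621% of all genes that rose and 0.0432% that fell, and the snRNP core median was 0.41.

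Counts per kilobase divide the CPM of a gene by the length of 1 representative transcript, to set levels roughly side by side between genes. Reads of all exons were counted, and the lengths can differ much. Hnrnpa2b1 has 1662 bases of transcript and 6584 of summed exons, and Hnrnpab has 2370 and 2782. The order of genes depends on the length used, and an order by exon length was not made. On this scale Snrpb led the snRNP core in all groups, with a median of 168 CPM per kilobase in Myc lymphomas, 155 in vector lymphomas and 121 in normal spleens. Hnrnpa2b1 led the hnRNPs at medians of 279, 406 and 358, and Srsf5 led the SR proteins at 216, 305 and 234, both in the same order of groups. In the SF3 complex Sf3b2 was first in Myc and vector lymphomas (89.7 and 173), and Sf3b1 was first in normal spleens, at 107 with Sf3b2 at 101, ranges that overlapped. Snrpd2 was the lowest of 12 in vector lymphomas (12.9), sixth in Myc lymphomas (44.9) and ninth in normal spleens (21.8). Hnrnpll was 18th of 20 in Myc lymphomas (9.68) and last in vector lymphomas and normal spleens (4.49 and 4.51).

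Ratios of related proteins within a sample need no scaling between samples. For 3 pairs the log2 ratio of counts was compared between groups with an exact two-sided permutation test, adjusted over 9 tests. Hnrnpll over Hnrnpl, its close relative that also binds CA repeats, had a log2 ratio of -4.57, -3.50 and -3.11 (lowest, median, highest) in Myc lymphomas, against -5.09, -4.55 and -3.92 in vector lymphomas, and -5.19, -4.49, -4.61 and -4.58 in normal spleens. The mean was higher in Myc than in vector lymphomas by 0.89 (exact permutation p = 0.00249, adjusted p = 0.0224) and higher than in normal spleens by 1.05 (exact p = 0.00808, adjusted p = 0.0364). Within the earlier runs the differences were 0.54 (exact p = 0.222, adjusted p = 0.400) and 0.89 (exact p = 0.0242, adjusted p = 0.164), the first with 2 vector lymphomas only. Myc 6 and Myc 8 lay within the vector range and the other 6 Myc lymphomas above it. Hnrnpl itself had 257, 338 and 389 CPM in Myc lymphomas, against 299, 344 and 390 CPM in vector lymphomas, and 413, 348, 337 and 342 CPM in normal spleens, with no call.

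Srsf3 over Srsf7 differed by -0.30 between Myc and vector lymphomas (exact permutation p = 0.0746, adjusted p = 0.112). Srsf7 had 116, 145 and 196 CPM in Myc lymphomas, against 107, 127 and 170 CPM in vector lymphomas, and 162, 158, 167 and 140 CPM in normal spleens. Hnrnpa1 over Hnrnpa2b1 was higher in Myc lymphomas than in normal spleens by 0.67 (exact permutation p = 0.0202, adjusted p = 0.0606), which did not pass the adjustment. It was higher in Myc than in vector lymphomas by 0.19 (exact p = 0.487, adjusted p = 0.487).

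**Figure D4:**
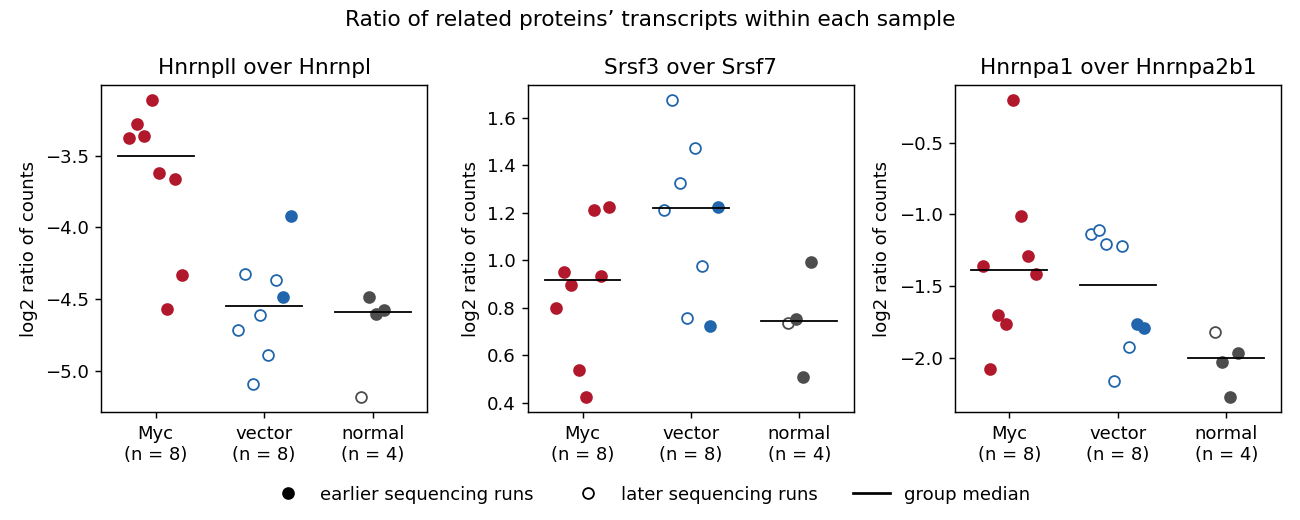
Log2 ratio of the counts of 3 pairs of related genes in each Myc (n = 8), vector (n = 8) and normal (n = 4) sample; filled points are earlier runs, open points later runs, and lines are group medians. For Hnrnpll over Hnrnpl 6 of 8 Myc lymphomas lie above every vector lymphoma, whose highest value is -3.92, and every normal spleen.

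The classes also differed in size and in how unique their sequences are. The median summed exon length was 2335 bases in the snRNP core, 3841 in the SF3 complex, 3988 in the SR proteins and 5898 in the hnRNPs. Over the 52 members the Spearman correlation of exon length with the log2 fold change of Myc over vector was -0.54, beside -0.33 over all genes with a length; within the earlier runs it was -0.49 beside -0.14, and in vector over normal it was 0.15 beside 0.04. These are descriptions across genes, which share libraries and are not independent replicates. Transcripts of 10 of 12 snRNP core genes, 13 of 20 hnRNPs, 6 of 11 SR proteins and 4 of 9 SF3 genes hold a stretch of at least 100 bases with at least 95% identity to another annotated gene. More than 50% of the transcript lay in such stretches for 5, 4, 2 and 1 of them, among them Snrpf, Snrpa, Snrpe, Hnrnpa3, Hnrnpf and Srsf5, whose counts are therefore uncertain. Reads aligned to several places, which the table keeps on a line of its own, made up 22.2 to 40.3% of the reads of Myc samples, 15.4 to 31.3% of those of vector samples and 14.3 to 17.9% of those of normal samples. Of the members with no such stretch, 2 of 5 SR proteins, 1 of 7 hnRNPs, 1 of 2 snRNP core genes and 2 of 5 SF3 genes rose in Myc against vector lymphomas, and 3 of 7 hnRNPs fell, beside the 26.6% and 21.9% of all genes. The parts of length and of shared sequence in the results were not tested.

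**Figure D5:**
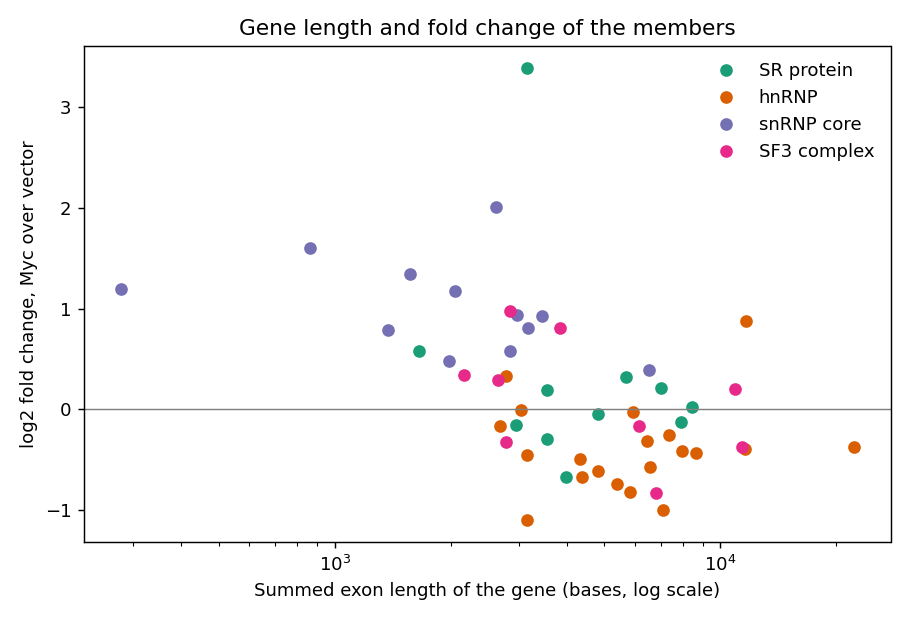
Log2 fold change of Myc over vector lymphomas (n = 8 each) against the summed exon length of each of the 52 members (bases, log axis), coloured by class. Short snRNP core genes lie at the upper left and long hnRNPs at the lower right, with a Spearman correlation of -0.54 over the members.

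Genes that work beside the members were taken from lists of splicing complexes. The SMN complex and methylosome load the Sm ring onto the spliceosomal RNAs, and 8 of 11 of their genes rose and 0 fell in Myc against vector lymphomas (median log2 fold change 0.71), where 26.6% of all genes rose and 21.9% fell. Of these 11 genes 2 rose within the earlier runs, where 2.97% of all genes rose, and 5 with run order as a term, where 9.2% rose. Prmt5, the enzyme that methylates Sm proteins before loading, had 94.2, 128 and 185 CPM in Myc lymphomas, against 51.5, 69.0 and 83.2 CPM in vector lymphomas. It rose by 0.97 ± 0.14 (adjusted p = 2.23e-05) without overlap, and was one of 2 genes of its list called within the earlier runs (1.09, adjusted p = 0.0420). Strap, a partner of the SMN complex, rose by 0.81 ± 0.12 (adjusted p = 3.04e-05). The LSm proteins, relatives of the Sm proteins that bind U6 RNA or decaying messenger RNA, had 5 of 8 that rose and 0 that fell (median 0.63), beside the same 26.6% and 21.9%. Lsm2 rose by 1.64 ± 0.26 (adjusted p = 4.45e-05) and Lsm4 by 0.87 ± 0.19 (adjusted p = 0.00116). Within the earlier runs 0 of 8 LSm genes were called, with a median of 0.33, where 2.97% of all genes rose and 4.4% fell.

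The kinases that phosphorylate SR proteins went the other way, with 4 of 9 that fell and 0 that rose in Myc against vector lymphomas (median -0.42), where 21.9% of all genes fell. In the earlier runs alone 1 of 9 was called lower, at a median of -0.21, where 4.4% of all genes fell. With run order as a term 1 of 9 fell, at a median of -0.22, where 9.77% of all genes fell. Srpk3 had 9.41, 18.7 and 34.6 CPM in Myc lymphomas, against 84.1, 98.4 and 145 CPM in vector lymphomas. It fell to 0.18 of the vector level (log2 -2.48 ± 0.23, adjusted p = 9.13e-08), with -2.57 in the earlier runs (adjusted p = 6.13e-04). Dyrk1a fell by 0.83 ± 0.21 (adjusted p = 0.00269). Of the other lists, U5 and tri-snRNP genes had 4 that rose and 4 that fell of 15, U2-associated factors 2 and 3 of 12, U1 and minor spliceosome genes 1 and 2 of 10, the Prp19 complex 1 and 3 of 10, and other splicing regulators 4 and 7 of 27. Over all genes 26.6% rose and 21.9% fell. In each of these 5 lists 0 rose and 0 fell within the earlier runs, beside 2.97% and 4.4% of all genes. Over all samples Snu13 and Usp39 rose by 1.35 and 0.94, Luc7l3 by 0.58 and Plrg1 by 0.53, and Sf1, Smndc1, Pdcd7, Syf2 and Rbm39 fell by 0.69, 0.77, 0.50, 0.59 and 0.77. Taf15 fell to 0.459 of the vector level (adjusted p = 2.73e-04).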

How the data were processed

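Per the labels' protocols, messenger RNA was selected by its poly(A) tail and read on the Ion Proton platform, for 20 samples. The deposited values are raw counts per Ensembl gene, with 1 column per sample and no scaling recorded by the authors. Tools listed in the submitters' processing notes are HTSeq, BWA 0.7.5a and Picard 1.119; mm9 and NCBIM37 are listed as builds, without the role of any. The table holds 37620 genes and 5 lines for reads assigned to no gene; 37.1 to 57.0% of the reads were counted to genes, and the 5 lines stayed out of library sizes and tests. Whether the counting used strand is not stated in the labels or notes, so reads of a gene and of an overlapping antisense gene cannot be told apart. Gene names came from GENCODE vM21, which matched 32897 identifiers; lengths and transcript sequences for the copy search came from the same release and serve as descriptions only, since the build differs.

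Counts were filtered with edgeR's filterByExpr by group, scaled with TMM and tested with edgeR 4.0.16 (R 4.3.3) by the quasi-likelihood F test in 1 fit of the 3 groups, with Benjamini-Hochberg adjustment over 17824 genes. The test was tried on counts simulated with the same spread for all genes, unlike the data. It called 90% and 98% of genes with a true log2 fold change of -2 and 2. At -1 and 1 it called 25% and 26%, so a gene not called may still differ. Of unchanged genes it called 0.04%. Standard errors are the log2 fold change over the square root of F. CPM are counts per 1e+06 of the scaled library. DESeq2 1.42.0 was an alternative. Pair ratios took a pseudocount of 1 count and scipy 1.17.1; copies were searched with blastn 2.17.0. For the pairs, 4 were planned and 3 measured: no row of the table carries the name Snrpn, so Snrpn over Snrpb is not analysed here. Of the other splicing genes, Nhp2l1 was matched to no row. Promoter windows came from RefSeq. A further B cell marker is not reported here.

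The members, the gene lists and the tests were chosen with earlier results of these data known. Genes were named by rule: in each class the 3 called genes that rose furthest and the 3 that fell furthest in Myc against vector lymphomas, calls against the direction of the class, pair members, and Srsf1, Srsf2, Hnrnpk, Hnrnpu, Hnrnpc, Snrpd3, Sf3b1 and Sf3a3; in each other list the 2 genes with the smallest p. Further members were named after their values were seen. The labels number the samples within 2 to 3 title prefixes per lymphoma group without saying what a prefix or number stands for, so a p-value reflects only the variation among these samples, which may be technical; numbers used here follow accession order and pair no samples. Later and earlier runs were read from the instrument run numbers in the labels, with the cut set within each of several instruments. The same run number can therefore be earlier on a given instrument and later on another.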

Additional observations from a re-analysis of the deposited data

Results flagged for a closer look

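Of 105 sets of samples of 1 group examined, 20 had a highest or lowest sample far from the others by Dixon's 95% criterion, of which chance gives about 1 in 20; groups of samples share libraries, so the flags are not independent. Myc 5 accounted for most: its summed snRNP core expression was 2295 CPM and its SF3 complex sum 1198 CPM, and on the log2 CPM scale it stood at 8.51 for Snrpd2, 7.35 for Snrpf, 7.79 for Snrpg, 7.75 for Sf3b5, 7.501 for Sf3b6 and 6.93 for Srsf9, above the other Myc lymphomas, and at 6.55 for Srsf1, 7.78 for Hnrnpk and 6.59 for Sf3b1, below them. Myc 5 also had the largest share of reads aligned to several places, 40.3%, and the smallest scaling factor, 0.675; their part was not tested. Normal 1, the one normal spleen of a later run, had a summed hnRNP expression of 6471 CPM and log2 CPM of 9.77 for Hnrnpa2b1, 8.69 for Hnrnpl and 9.05 for Hnrnpul2, above normal 2 to 4, and 3.54 for Snrpd2, 4.44 for Snrpg and a log2 ratio of -5.19 for Hnrnpll over Hnrnpl, below them. Myc 4 was low for Hnrnpa1 (log2 CPM 6.54), and vector 2 was low for Srsf12 (-4.43), where it had no count.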

How the results depend on the processing

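The comparison of Myc with vector lymphomas depends on the runs: 16 members rose and 12 fell over all samples, 0 and 1 within the earlier runs (8 against 2 samples, so fewer samples as well), and 4 and 1 with run order as a term. Myc against normal gave 14 and 6 over all samples and 5 and 1 within the earlier runs. Vector against normal gave 0 called over all samples and 2 that rose and 1 that fell with only those groups in the fit. DESeq2, DESeq2's size factors and the unfiltered fit kept every count within 1.5 times. Hnrnpll over Hnrnpl gave 0.54 (adjusted p = 0.400) in Myc against vector and 0.89 (adjusted p = 0.164) in Myc against normal within the earlier runs. With each sample left out in turn, Myc against vector gave 15 to 18 that rose and 11 to 15 that fell, Myc against normal 10 to 16 and 2 to 7 (2 without normal 1), and vector against normal 0 and 0; the ratio of Hnrnpll to Hnrnpl ran from 0.81 to 1.02 in Myc against vector and from 0.89 to 1.18 in Myc against normal, where the adjusted p, over fewer possible permutations, reached 0.109 and passed 0.05 in most of them. Hnrnpa1 over Hnrnpa2b1 ran from 0.50 to 0.77 in Myc against normal and passed the threshold without Myc 2 (0.77, adjusted p = 0.0273), and from 0.40 to 0.57 in vector against normal, where it passed without vector 4 (0.57, adjusted p = 0.0364). The Myc gene itself stayed called throughout, at 2.87 to 3.29. The cause of these changes was not tested. No paired analysis was possible because the sample numbers used here are accession order and the numbers in the titles repeat within a group. Over the 28 members named by rule, the sign of the log2 fold change turned in 66 settings; no value concerned was called over all samples or under that setting. Of all 52 members, 43 kept their sign within the earlier runs in Myc against vector; among the others only Hnrnpm was called over all samples (-0.41, against 0.0074). Within the earlier runs these were, in vector against normal Srsf1 0.11, Srsf2 0.26, Srsf9 0.17, Hnrnph3 0.047, Hnrnpul2 -0.15, Snrpd2 0.55, Snrpf 0.42, Snrpg 0.46, Sf3b6 0.34, and in Myc against vector Hnrnpa1 0.096, Hnrnpl 0.059, Sf3a3 0.10, and in Myc against normal Hnrnpk 0.024, Hnrnpl 0.013. With no filter on low counts these were, in Myc against normal Srsf1 -0.0018, Srsf3 -0.010, and in vector against normal Hnrnpa2b1 0.012. With run order as a term these were, in Myc against normal Srsf1 -0.029, and in vector against normal Srsf9 0.036, Hnrnpk -0.012, Hnrnpu -0.028, Hnrnpul2 -0.14, Snrpd2 0.58, Snrpf 0.063, Snrpg 0.20, Sf3b6 0.0012, and in Myc against vector Hnrnpa1 0.13, Hnrnpl 0.093, Sf3a3 0.080. With DESeq2's size factors in edgeR these were, in vector against normal Srsf9 0.0046, Hnrnpa2b1 0.019. With the DESeq2 Wald test these were, in vector against normal Srsf9 0.0043, Hnrnpa2b1 0.018. With only the groups compared in the fit these were, in vector against normal Hnrnpa2b1 0.0038. With each sample left out in turn the values that crossed 0 ran, in Myc against normal Srsf1 -0.049 to 0.18, Srsf3 -0.012 to 0.073, Hnrnpa1 -0.054 to 0.34, Hnrnpk -0.21 to 0.027, Hnrnpl -0.13 to 0.018, Sf3a3 -0.0022 to 0.24, and in Myc against vector Srsf2 -0.23 to 0.0060, Hnrnpl -0.10 to 0.026, and in vector against normal Srsf9 -0.075 to 0.040, Hnrnpa2b1 -0.046 to 0.21, Hnrnph1 -0.19 to 0.071, Hnrnph3 -0.20 to 0.067, Hnrnpl -0.088 to 0.061, Snrpd2 -0.36 to 0.062.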

Other observations

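Later-run and earlier-run samples of the same group differed in some members, among vector lymphomas and among normal spleens. How closely the 2 earlier-run vector lymphomas resembled the earlier-run normal spleens was not measured. The median difference of later minus earlier runs in log2 CPM was 0.25 in vector lymphomas and 0.54 in normal spleens for hnRNPs, and -0.46 in vector lymphomas and 0.06 in normal spleens for the snRNP core, beside -0.05 and 0 over all genes. Some members differed the same way in both groups: Hnrnpa3 was higher in later runs by 0.81 in vector lymphomas and 0.81 in normal spleens, Sf3b2 by 0.81 and 0.66, and Snrpd2 was at -1.38 and -1.44. Others did not: Snrpf was at -0.91 in vector lymphomas and -0.12 in normal spleens, and Snrpb2 at -0.73 and 0.09. The vector lymphomas of the earlier runs are also the 2 with a title prefix of their own, so run and source cannot be told apart there. Of the 3 pseudogene rows left out, Hnrnpa1l2-ps, the most counted, had 10.95 to 56.5 CPM in Myc lymphomas (median 37.5), 11.7 to 33.0 CPM in vector lymphomas (median 22.2) and 21.3 to 35.0 CPM in normal spleens (median 30.2).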
